A study of Mus musculus with 5 samples.

Results

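The genes described here are the 44 collagen chain genes of the mouse, chosen as every gene whose symbol reads Col, a number, a and a second number, out of 28001 features in the deposited count matrices. They were read in 5 single-cell RNA-seq libraries of sorted tdTomato-positive cells, which the labels call mesenchymal progenitors: 1 library of resting hindlimb muscle and 4 of endpoint sarcomas taken at the shoulder (sarcoma 1), the head (sarcoma 2), the head or ear (sarcoma 3) and the hip (sarcoma 4). By structure the members fall into 11 fibrillar chains, 8 basement membrane chains, 9 fibril-associated chains (FACIT) and 16 others, among them the type VI and type VIII chains and the transmembrane collagens.

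All mice were C57BL/6J and carried Hic1-CreERT2 on both alleles, so that the recombinase is driven from Hic1, a gene of quiescent mesenchymal progenitors and mural cells. The muscle donor was Hic1CreERT2/CreERT2 with 1 copy of the Rosa26LSLtdTomato reporter and intact Smarcb1. The sarcoma donors were Hic1CreERT2/CreERT2 with 2 reporter copies and Smarcb1FL/FL, in which tamoxifen removes Smarcb1, whose protein belongs to the SWI/SNF chromatin remodellers. All groups received tamoxifen from 8 weeks of age, 2.5 mg in 100 µL of sunflower oil for 5 days and then 10 days without it. Muscle and sarcoma thus differ at once in genotype, in reporter dose, in anatomical site and in being a tumour, and these cannot be told apart. Whether each sarcoma grew in its own mouse is not in the labels. The p-values between classes rest on how far class differences vary from library to library. Those against muscle rest on the spread between the sarcoma libraries. Either spread may be partly technical.

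Collagens are trimers of alpha chains wound into a triple helix. Fibrillar collagens I, III and V form the tensile fibres of connective tissue, and the usual type I trimer holds 2 chains from Col1a1 and 1 from Col1a2. Type IV collagen makes the network of the basement membrane, in which the Col4a1 and Col4a2 chains form the common trimer and the Col4a3 to Col4a6 chains form tissue-restricted ones. Types XV and XVIII carry endostatin-like domains and sit at basement membranes, FACIT collagens such as XII, XIV and XVI lie on fibril surfaces, and type VI collagen forms beaded filaments around cells, including muscle fibres. In muscle, interstitial fibroblasts make most fibrillar and type VI collagen, and mural cells (pericytes and vascular smooth muscle cells) contribute to the basement membrane of small vessels.

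Kept cells had at least 500 genes and at most 10% mitochondrial UMIs, and numbered 6824 to 8206 per library. Total depth was 64061069 UMIs in the muscle library and 151903246 to 213271163 in the sarcomas. Cells were assigned by gates on genes that are not collagens. Sarcoma cells had at least 2 Gchfr UMIs and no Smarcb1 UMI, stromal cells in sarcomas had at least 4 UMIs over Ddah1, Wisp1, C1qtnf7 and Fbn2, mural cells had at least 5 Rgs5 UMIs per 10000, and muscle progenitors had at least 1 Pdgfra UMI. Cells in over 1 gate (68 to 98 per library) entered no class, and 473 to 3364 cells per library met no gate. Each gate takes a range of cells rather than a clustered type. Sarcoma cells numbered 5122, 7382, 2834 and 3264 in sarcomas 1 to 4, stromal cells 175, 153, 1714 and 79, and mural cells 182, 130, 231 and 25. The muscle library gave 6025 progenitors and 661 mural cells, and 0 muscle cells met the sarcoma gate. Pairs of libraries shared 12 to 22 cell barcodes.

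The stromal gate in sarcoma 4 went against its name. Those 79 cells held 392 CPM of Dcn (decorin, a fibroblast proteoglycan) where the other stromal sums held 3249 to 6716, and 9.75 CPM of Smarcb1 where the others held 43.5 to 65.6. CPM here is UMIs per 1000000 UMIs of the summed class. The 8 fibroblast markers summed to 1225 CPM in them against 9699, 10795 and 17645 in the other stromal sums. In the sarcoma cells of sarcomas 1 to 4 they summed to 2891, 7173, 7946 and 972 CPM. Dcn was at 1342, 4049, 592 and 17.5 CPM in those cells, above the stromal 3772 CPM in sarcoma 2. These markers alone therefore do not set stroma apart from sarcoma cells in every tumour. Requiring a Smarcb1 UMI left 13 of these cells, with 1760 CPM of Dcn, 3378 of Col1a1 and 4371 of Col3a1. Results that use stroma are therefore given with and without the stromal sum of sarcoma 4. The mural gate used Rgs5 alone, and the 9 other mural markers summed to 5686 to 7167 CPM in sarcoma mural cells and to 9083 CPM in muscle mural cells, against 12.8 to 551 CPM in sarcoma cells.

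The collagen share of the transcriptome differed between classes and between tumours. Counting all 44 members together, sarcoma cells carried 24.2, 50.2, 98.9 and 50.1 collagen UMIs per 10000 in sarcomas 1 to 4 (55.8 ± 31.2, SD, n = 4). Stromal cells carried 384.9, 477.7, 531.6 and 87.1, and without sarcoma 4 the lowest stromal value lay above the highest value of sarcoma cells. Mural cells carried 139.9, 187.1, 179.5 and 183.8, above the sarcoma cells of every tumour. Muscle progenitors, the only resting reference, carried 321.2 and muscle mural cells 78.9. Within whole libraries the 4 sarcomas held 38.8, 61.2, 229.3 and 51.1 against 311.4 in muscle, and sarcoma 3, which has the most stromal cells, stood highest. In sarcoma 3 the stroma held 60.8% of all collagen UMIs, whereas it held 20.8%, 15.5% and 2.47% in sarcomas 1, 2 and 4. A lower value in a whole library cannot be told apart from fewer collagen-rich cells.

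**Figure D1:**
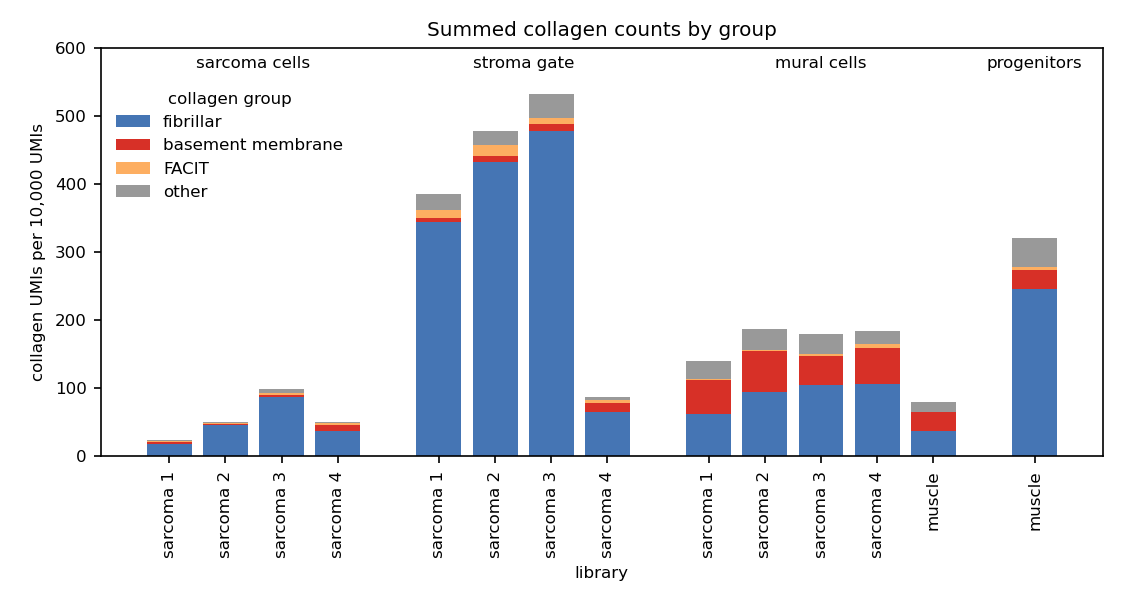
Collagen UMIs per 10000 UMIs in each class of each library, stacked by structural group (fibrillar, basement membrane, FACIT, other). Stromal sums of sarcomas 1 to 3 reach 384.9 to 531.6, sarcoma cells stay at or below 98.9, and the mural bars of the sarcomas hold the largest basement membrane segments, 43.5 to 60.1 per 10000.

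Composition also differed by class. Fibrillar chains made up 70.1% to 90.5% of the collagen UMIs of sarcoma cells, 74.6% to 90.6% of those of stroma and 76.4% of those of muscle progenitors, but 43.9% to 58.0% in sarcoma mural cells. Basement membrane chains made up 24.2% to 35.5% of mural collagen UMIs in the sarcomas and 34.5% in muscle mural cells. In sarcoma cells the basement membrane share was 17.8% and 18.0% in sarcomas 1 and 4, and 2.57% and 3.17% in sarcomas 2 and 3. Over the 14 sums of sarcoma cells, stroma, mural cells and muscle progenitors, 9 of the 44 members stayed below 5 CPM in every sum and 24 below 100 CPM. These are 3′ tag counts of molecules, which do not scale with transcript length, and all levels below are on that scale.

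**Figure D2:**
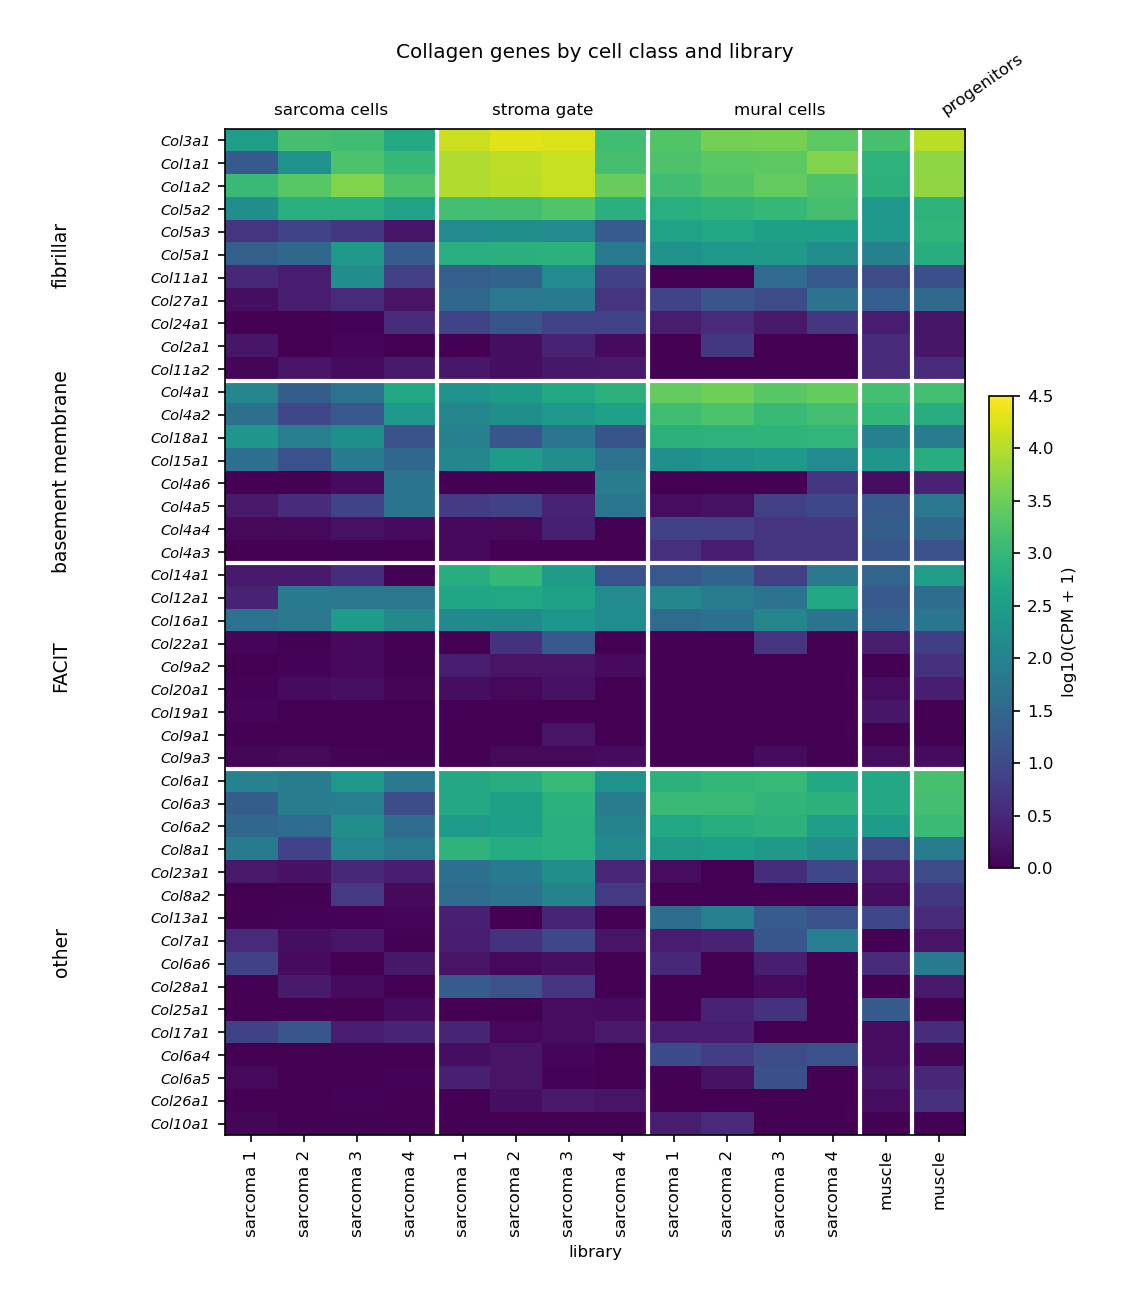
Level of each of the 44 collagen genes (rows, ordered by structural group) in each class of each library (columns), coloured by log10(CPM + 1). Col1a1, Col1a2 and Col3a1 are brightest in stroma of sarcomas 1 to 3 and in muscle progenitors, and Col4a1 and Col4a2 are brightest in mural cells of the sarcomas.

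For the chains on which the results turn, the stretch before the RefSeq start is shown for orientation, read from the RefSeq promoter table (build GRCm38.p6), which held an entry for 35 of the 44 members. Each stretch lies outside annotated exons, runs 5′ to 3′ on the gene's strand, and has 3 promoter motifs in capitals on whichever strand they lie. These are the CCAAT box, the TATA box spelled as TATAAA, and the GC box spelled as GGGCGG, which appears as CCGCCC when it lies on the other strand. Col1a2 and Col3a1 stand for the fibrillar chains that differed in degree, Col5a3 for the chain with the smallest adjusted p, and Col4a5 and Col4a6 for a head-to-head pair that was high in 1 tumour. The positions are chr6:4505370-4505492 (+) for Col1a2, chr1:45311288-45311537 (+) for Col3a1, chr9:20815068-20815317 (-) for Col5a3, chrX:141475169-141475384 (+) for Col4a5 and chrX:141474077-141474326 (-) for Col4a6.
Col1a2: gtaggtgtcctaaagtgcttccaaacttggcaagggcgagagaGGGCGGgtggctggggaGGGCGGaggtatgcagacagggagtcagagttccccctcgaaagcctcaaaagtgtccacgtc
Col3a1: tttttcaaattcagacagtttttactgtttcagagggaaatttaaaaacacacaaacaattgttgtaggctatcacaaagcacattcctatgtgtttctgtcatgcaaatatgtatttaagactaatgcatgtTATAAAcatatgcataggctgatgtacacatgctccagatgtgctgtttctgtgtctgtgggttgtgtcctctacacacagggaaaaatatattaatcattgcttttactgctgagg
Col5a3: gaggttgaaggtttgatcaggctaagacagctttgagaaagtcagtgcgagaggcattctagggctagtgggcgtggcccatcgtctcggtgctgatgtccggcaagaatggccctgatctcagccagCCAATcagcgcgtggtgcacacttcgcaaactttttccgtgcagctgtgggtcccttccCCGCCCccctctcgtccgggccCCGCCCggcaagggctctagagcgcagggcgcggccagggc
Col4a5: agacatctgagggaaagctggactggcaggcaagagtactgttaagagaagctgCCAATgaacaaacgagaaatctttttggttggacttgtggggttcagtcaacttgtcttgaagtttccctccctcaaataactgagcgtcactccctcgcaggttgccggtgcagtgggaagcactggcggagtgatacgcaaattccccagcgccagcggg
Col4a6: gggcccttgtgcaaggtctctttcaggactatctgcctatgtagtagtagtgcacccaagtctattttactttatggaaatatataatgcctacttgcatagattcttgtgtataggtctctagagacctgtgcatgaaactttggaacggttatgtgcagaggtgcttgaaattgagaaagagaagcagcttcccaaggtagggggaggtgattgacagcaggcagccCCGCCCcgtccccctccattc
The Col3a1 stretch holds a TATAAA 117 bases before the start and neither of the other motifs. The Col5a3 stretch holds a CCAAT at 122 bases and 2 GGGCGG matches, and the Col1a2 stretch holds 2 GGGCGG matches. The Col1a2 and Col4a5 stretches stop 125 and 34 bases before the start. The part not shown holds a CCAAT at 109 bases for Col1a2 and a GGGCGG at 30 bases for Col4a5. In the 250 bases before the start, CCAAT occurred in 13 of 35 members (37.1%) and in 33.8% of 32851 promoters, TATAAA in 5 (14.3%) against 12.4%, and GGGCGG in 21 (60.0%) against 32.7%. The AP-1 type motif TGANTCA occurred in 1 member (2.86%) and in 6.75% of promoters. Members were counted by gene, with a match in any of their entries, and Col9a1, Col6a2 and Col18a1 had more than 1 entry. The background counts promoters, so the shares of members and of promoters are not in the same unit. A match is a description of letters and says nothing of binding.

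Type I collagen showed an imbalance between its chains in sarcoma cells, where the type V ratio given below was also under its level in muscle progenitors. Col1a1 (ENSMUSG00000001506, chromosome 11, 94936224 to 94953042, mm10) was at 17.9, 197, 1694 and 974 CPM in the sarcoma cells of sarcomas 1 to 4, whereas Col1a2 (ENSMUSG00000029661, chromosome 6, 4504814 to 4541544) was at 1143, 2174, 4420 and 1753 CPM. Col1a1 thus varied far more between tumours than its partner and was the lower chain in the sarcoma cells of all 4. In stroma Col1a1 was at 9300, 11194, 13390 and 1460 CPM and Col1a2 at 9272, 10608, 13302 and 2892 CPM, so that the chains were near parity except in sarcoma 4. Muscle progenitors held 5546 CPM of Col1a1 and 5645 of Col1a2.

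The ratio of Col1a1 to Col1a2 UMIs was 0.0156, 0.0907, 0.383 and 0.556 in sarcoma cells, 1.00, 1.06, 1.01 and 0.505 in stroma, and 1.32, 1.16, 0.897 and 2.49 in sarcoma mural cells, the last of these from 25 cells. It was 0.982 in muscle progenitors and 1.03 in muscle mural cells. The log2 ratio was higher in mural than in sarcoma cells in 4 of 4 tumours, by 3.37 ± 2.26 (SD, n = 4), and the two-sided exact sign-flip permutation test gave p = 0.125, the smallest value that 4 pairs allow. Stroma exceeded sarcoma cells in 3 of 4 tumours, by 2.70 ± 2.67 (SD, n = 4; exact sign-flip permutation p = 0.25), and by 3.65 ± 2.31 (SD, n = 3) without sarcoma 4. A design of 4 tumours cannot take this test below 0.05. The test was not planned and was run for this pair of chains alone.

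Single cells were read as well. Among sarcoma cells with a Col1a2 UMI, 79.1%, 44.2%, 3.36% and 10.8% had no Col1a1 UMI in sarcomas 1 to 4, against 0.116% of muscle progenitors. In muscle mural cells it was 41.3%, in stroma 9.25%, 0%, 0.234% and 11.5% and in sarcoma mural cells 8.72%, 6.25%, 3.49% and 9.52%. In sarcoma 4 these were 9 of 78 stromal and 2 of 21 mural cells. These shares are at each class's own depth and so do not rank the classes. The median was 3175 UMIs in muscle mural cells, 9489 to 11969 in sarcoma mural cells and 23189 to 32506.5 in sarcoma cells. With each cell thinned to 2000 UMIs, Col1a1 was seen in 3.96% of sarcoma cells in sarcoma 1 (exact 95% binomial interval 3.44% to 4.53%), 26.1% in sarcoma 2, 73.5% in sarcoma 3 and 56.8% in sarcoma 4. Col1a2 was seen in 77.7%, 93.5%, 98.2% and 79.6% of the same thinned cells. Without thinning the Col1a1 shares were 20.8%, 55.6%, 96.6% and 88.5%. No class that should lack type I collagen was defined, so the share that free RNA gives is unknown. As a share of the stromal level in sarcoma 1, its sarcoma cells held 0.192% of Col1a1, 2.47% of Col3a1, 12.3% of Col1a2 and 33.9% of Col16a1. On the same scale Col14a1 was at 0.168%, and of the 8 fibroblast markers Clec3b was at 0.124% and Mfap5 at 0.256%. The rest of those markers were at 7.69% to 129%. In sarcoma 3, the sarcoma cells held 12.6% of the stromal level of Col1a1 and 0.947% of that of Col14a1. The part of free RNA in these Col1a1 levels was not tested.

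**Figure D3:**
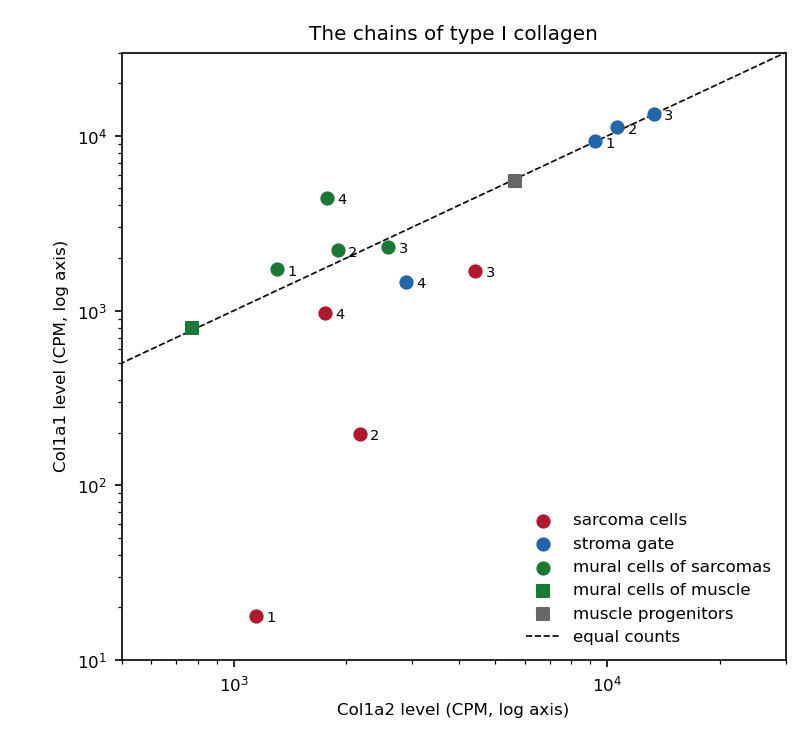
Col1a1 against Col1a2 (CPM, both axes logarithmic), 1 point for each class of each library, with the dashed line marking equal levels. Sarcoma cells lie below the line, by far the most in sarcoma 1 (17.9 against 1143 CPM), while stroma of sarcomas 1 to 3 and muscle progenitors lie on it.

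The other fibrillar chains differed between classes chain by chain. Col3a1 (type III, ENSMUSG00000026043, chromosome 1, 45311538 to 45349706) was at 338, 1473, 1337 and 569 CPM in sarcoma cells and at 13675, 18948, 18068 and 1338 CPM in stroma. The groups did not overlap except through the stromal sum of sarcoma 4. Col5a3, a chain of a rarer type V trimer (ENSMUSG00000004098, chromosome 9, 20770050 to 20815067), was at 3.80, 7.46, 4.29 and 0.807 CPM in sarcoma cells, at 150, 177, 146 and 18.8 in stroma, and at 387, 485, 357 and 365 in mural cells. Col5a3 separated all 3 classes without overlap, and muscle progenitors were higher still at 873 CPM. Col5a2, a type V chain, was at 165, 654, 727 and 399 CPM in sarcoma cells, 1362, 1517, 1903 and 710 in stroma and 657, 849, 1007 and 1511 in mural cells. Col27a1, a fibrillar chain prominent in cartilage, was at 0.486 to 2.43 CPM in sarcoma cells and at 30.7, 59.0, 69.4 and 3.83 in stroma. Its mural level in sarcoma 4 rested on 25 cells, in which 3 UMIs already amount to 12.45 CPM.

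Of the minor fibrillar chains, Col5a1 nucleates type I fibrils as part of type V. It was at 22.5, 30.6, 258 and 19.5 CPM in sarcoma cells and at 657, 729, 788 and 66.5 in stroma. The ratio of Col5a1 to Col5a2 UMIs was 0.136, 0.0467, 0.356 and 0.0491 in sarcoma cells and 0.483, 0.480, 0.414 and 0.0937 in stroma. It was 0.110 to 0.315 in sarcoma mural cells and 0.774 in muscle progenitors. Col11a1, a cartilage-type chain, was at 160 CPM in the sarcoma cells of sarcoma 3 and at 1.26 to 6.26 in those of the other tumours, and stroma was also highest in sarcoma 3, with 148 CPM against 6.62 to 25.8. The 5 tenocyte markers summed to 3831 CPM in the stroma of sarcoma 3 and to 571 to 1039 in the others. In the sarcoma cells of sarcomas 1 to 4 they summed to 1293, 226, 325 and 364 CPM. The part of these markers in the Col11a1 levels was not tested. Col24a1 stayed below 20 CPM in every one of these sums. The cartilage chains Col2a1 and Col11a2 did not exceed 4.30 and 2.59 CPM in any of them, whereas muscle cells that met the stromal gate, which form no class here, held 52.9 and 120 CPM.

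Stroma and sarcoma cells were compared within tumours, with edgeR's quasi-likelihood test on the class sums and the library as a block. Of 27 members that passed the low-count filter, 12 were higher in stroma at an adjusted p under 0.05, against 5.80% of all 11713 genes tested, and 0 were lower, against 2.19% of genes. At an unadjusted p under 0.05 the test gave 22 members (28.9% of genes), and DESeq2 called 21 higher (14.0% of genes). The median log2 difference of the tested members was 3.12, beside -0.07 over all genes. By group, 6 of 9 tested fibrillar members, 1 of 3 FACIT members and 5 of 9 others were higher, and 0 of 6 basement membrane members. Without the stromal sum of sarcoma 4, 20 of 30 tested members were higher (11.0% of genes) and 0 lower (7.70% of genes).

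Among the fibrillar chains, Col5a3 rose in stroma by 4.93 ± 0.59 on the log2 scale (SE; edgeR adjusted p = 0.00408) and Col3a1 by 3.75 ± 0.65 (adjusted p = 0.0169). Col27a1 rose by 5.10 ± 0.90 (edgeR adjusted p = 0.0178), while Col1a2 showed the smallest fibrillar difference that passed, 1.98 ± 0.38 (adjusted p = 0.0234). Col5a1 and Col24a1 passed as well. The difference in Col1a1 was 4.40 ± 1.28 and did not pass with all sums (edgeR adjusted p = 0.0723), but it was 5.18 ± 1.10 without the stromal sum of sarcoma 4 (adjusted p = 0.0188). Col5a2 was at 1.65 ± 0.43 (adjusted p = 0.055) and 1.99 ± 0.37 (adjusted p = 0.0114) in the same pair of fits. The number of members called higher depended on the tumours included: it was 0 without sarcoma 1, 2 without sarcoma 2, 3 without sarcoma 3 and 21 without sarcoma 4, while 0.816%, 0.784%, 1.07% and 13.9% of all genes were called higher in those fits. None of the called members that were followed under the alternatives changed direction in those fits.

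**Figure D4:**
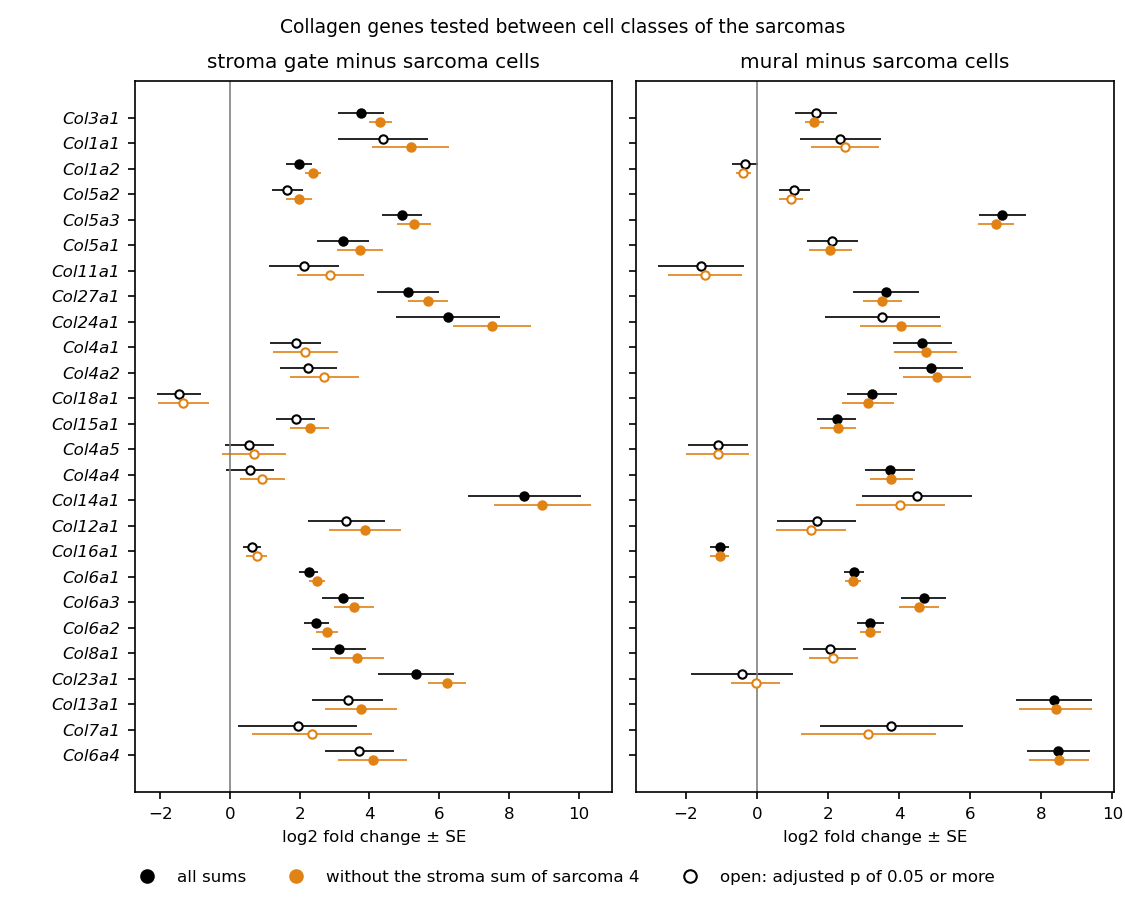
Log2 fold change (± SE) of the tested collagen genes, stroma minus sarcoma cells and mural minus sarcoma cells, from the edgeR fits with all sums (black) and without the stromal sum of sarcoma 4 (orange). Filled points have an adjusted p under 0.05 and open points do not, and Col8a2 is left out because mural cells had no UMI of it. Fibrillar chains such as Col3a1 (3.75) and Col5a3 (4.93) lie to the right for stroma, and Col4a1 (4.66) and Col4a2 (4.90) for mural cells.

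Within the sarcomas, Col4a1 and Col4a2 were highest in mural cells. Col4a1 (ENSMUSG00000031502, chromosome 8, 11198423 to 11312826, minus strand) was at 2671, 3272, 2167 and 2776 CPM in sarcoma mural cells and at 113, 19.8, 49.0 and 498 CPM in sarcoma cells. Col4a2 (ENSMUSG00000031503, chromosome 8, 11312805 to 11449287, plus strand) was at 1312, 1687, 1055 and 1444 CPM in mural cells and at 44.5, 8.63, 15.6 and 253 CPM in sarcoma cells. For both genes the mural values lay above every sarcoma-cell value, and within each tumour stroma lay between them, at 198, 287, 472 and 778 CPM of Col4a1. In muscle, mural cells and progenitors held 1417 and 1378 CPM of Col4a1 and 937 and 640 of Col4a2, and all basement membrane chains together came to 27.2 and 28.5 UMIs per 10000. The 2 genes start 21 bases apart on opposite strands. The ratio of Col4a1 to Col4a2 was 1.99 ± 0.07 in mural cells, 2.49 ± 0.49 in sarcoma cells and 1.84 ± 0.17 in stroma (SD, n = 4), and 2.15 in muscle progenitors. It ranged from 1.97 to 3.14 in sarcoma cells and was 1.51 in muscle mural cells. Whether the count kept reads of their overlapping first exons apart by strand is not given in the sources used here.

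Col18a1, the type XVIII chain from which endostatin is cut, was at 794, 813, 836 and 905 CPM in sarcoma mural cells, at 228, 84.6, 170 and 13.2 CPM in sarcoma cells and at 90.2, 14.9, 58.1 and 13.9 CPM in stroma. Its mural values varied little between tumours and none overlapped another class. Col15a1 was at 184, 227, 276 and 145 CPM in mural cells, 43.1, 12.8, 70.4 and 31.2 in sarcoma cells and 120, 296, 157 and 49.4 in stroma, with mural and stromal values overlapping. Muscle progenitors were higher than any sarcoma class for Col15a1, at 645 CPM.

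In the same fit, 12 of 27 tested members were higher in mural than in sarcoma cells, against 10.1% of all genes, and 1 was lower, against 9.38% of genes. The members' median log2 difference was 2.73, beside -0.10 over all genes. Of the basement membrane members, 5 of 6 tested were higher. Col4a1 rose by 4.66 ± 0.82 (edgeR adjusted p = 0.00803), Col4a2 by 4.90 ± 0.90 (adjusted p = 0.00943), Col18a1 by 3.24 ± 0.70 (adjusted p = 0.0173) and Col15a1 by 2.25 ± 0.55 (adjusted p = 0.0262). Col5a3 had the smallest adjusted p of the members, 6.91 ± 0.65 higher (edgeR adjusted p = 0.000633). The lower member was Col16a1, a FACIT chain, at -1.04 ± 0.27 (edgeR adjusted p = 0.03). Without the stromal sum of sarcoma 4, which also enters this fit's spread, 16 of 30 tested members were higher (11.5% of genes) and 1 lower (12.9% of genes). DESeq2 called 19 higher (15.8% of genes), and 7 were called higher by edgeR without sarcoma 1 (4.54% of genes). In that fit Col4a1, Col4a2, Col4a4, Col15a1 and Col27a1 did not pass. Col18a1 did not pass without sarcoma 2 or without sarcoma 3, Col4a2 and Col4a4 without sarcoma 2, Col15a1 without sarcoma 3, and Col16a1 without any 1 of the 4.

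Stroma and mural cells differed in fewer members. With all sums, 3 were higher in stroma (3.78% of genes) and 4 lower (3.74% of genes). Col1a2 was higher in stroma by 2.31 ± 0.38 (edgeR adjusted p = 0.0126), and Col16a1 and Col23a1 passed with it. Col18a1 was lower in stroma by 4.71, with a log2 difference of -4.71 ± 0.74 (edgeR adjusted p = 0.0107), and Col6a4, Col13a1 and Col4a4 passed with it. Without the stromal sum of sarcoma 4, 4 members were higher (5.93% of genes), Col3a1 among them at 2.69 ± 0.31 (edgeR adjusted p = 0.00417), and 5 lower (3.33% of genes). Leaving out a tumour gave 0, 0, 1 and 6 higher members without sarcomas 1, 2, 3 and 4, and 1, 0, 0 and 5 lower ones. Over all genes those fits called 0.614%, 0.354%, 0.499% and 7.23% higher and 1.06%, 0.708%, 0.868% and 5.23% lower.

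The tissue-restricted type IV chains followed another pattern. Col4a5 (ENSMUSG00000031274, X, 141475385 to 141689234, plus strand) was at 1.07, 2.75, 7.20 and 53.7 CPM in sarcoma cells. Its neighbour Col4a6 (ENSMUSG00000031273, X, 141165403 to 141474076, minus strand), which starts 1309 bases away in the opposite direction, was at 0, 0.0254, 0.340 and 51.9 CPM. Both genes were thus high in the sarcoma cells of sarcoma 4, the hip tumour. The stromal gate of sarcoma 4, whose cells held little Dcn, gave 57.1 CPM of Col4a5 and 75.6 of Col4a6, while the other stromal sums held 1.85 to 6.64 and 0 to 0.0761 CPM. Muscle progenitors held 60.2 CPM of Col4a5 but 1.67 of Col4a6.

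In sarcoma 4, 9.41% of sarcoma cells thinned to 2000 UMIs had a Col4a6 UMI (exact 95% interval 8.43% to 10.5%; 62.8% without thinning). In sarcoma 1 it was 0 of 5102 thinned cells, a count that allows a share of up to 0.0588% of cells with a UMI at this depth (3 cells of that total). Sarcoma 4 was 1 library, so this difference has no replicate. The other divergent pair, Col4a3 and Col4a4, whose starts lie 72 bases apart on chromosome 1, was low in every sarcoma class: Col4a4 was at 0.267 to 0.594 CPM in sarcoma cells and 3.90 to 6.31 in mural cells, against 31.4 in muscle progenitors and 20.6 in muscle mural cells. Col4a3 was at 1.23 to 4.15 CPM in sarcoma mural cells against 12.9 and 15.1 in the muscle classes.

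**Figure D5:**
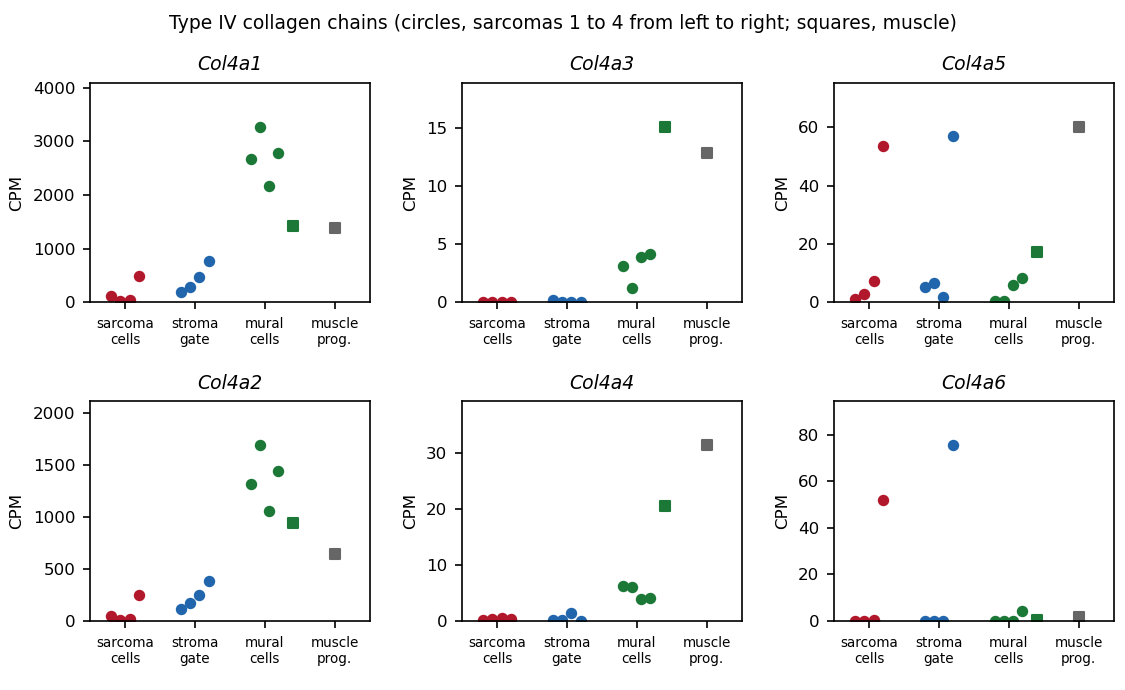
CPM of the 6 type IV chains, 1 panel for each gene, with 1 point for each library in each class and linear axes starting at 0. Col4a1 and Col4a2 peak in mural cells of all 4 tumours, Col4a3 and Col4a4 are highest in the muscle library, and Col4a6 stands out in sarcoma 4 (51.9 CPM in sarcoma cells), as does Col4a5 among the sarcomas (53.7 CPM).

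Among the 3 tested FACIT chains, Col14a1 differed most between stroma and sarcoma cells. This chain, which binds fibril surfaces and is widespread in fibroblasts, was at 1.06, 1.15, 2.94 and 0.0550 CPM in sarcoma cells and at 631, 989, 311 and 12.9 CPM in stroma, without overlap even in sarcoma 4. Its rise in stroma was 8.44 ± 1.62 on the log2 scale (edgeR adjusted p = 0.0234) and did not pass without sarcoma 1, 2 or 3. Col12a1, a chain of dense and tension-bearing tissue, was at 1.81, 67.3, 60.0 and 62.8 CPM in sarcoma cells and 439, 508, 378 and 149 in stroma, a difference of 3.34 ± 1.10 that did not pass (edgeR adjusted p = 0.0953) unless the stromal sum of sarcoma 4 was left out (3.86 ± 1.03, adjusted p = 0.0405). Col16a1 was the tested FACIT chain with the smallest difference, 0.64 ± 0.26 (edgeR adjusted p = 0.147), with 46.9, 62.4, 288 and 129 CPM in sarcoma cells and overlapping values of 138, 135, 229 and 156 in stroma. Col22a1, a chain of tissue junctions, stayed at or below 17.1 CPM in every sarcoma class.

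Among the other members, the 3 main chains of type VI collagen were low in sarcoma cells, where Col6a1 was at 99.7, 79.8, 251 and 65.8 CPM and Col6a3 at 20.6, 76.1, 82.4 and 10.7 CPM. In mural cells Col6a1 was at 777, 964, 1023 and 490 CPM and Col6a3 at 1082, 1110, 873 and 793 CPM, and in stroma they were at 519, 636, 1043 and 198 and at 516, 356, 753 and 80.4. All mural values lay above all sarcoma-cell values, and muscle progenitors exceeded every sarcoma class at 1531 CPM of Col6a1 and 1438 of Col6a3. The ratio of Col6a3 to Col6a1 UMIs was 0.207, 0.954, 0.328 and 0.163 in sarcoma cells and 0.939 in muscle progenitors. It was 0.405 to 0.995 in stroma and 0.853 to 1.62 in sarcoma mural cells. Relative to sarcoma cells, edgeR gave Col6a1 rises of 2.26 ± 0.27 in stroma (adjusted p = 0.00427) and 2.73 ± 0.28 in mural cells (adjusted p = 0.00092). Col6a2 rose by 2.47 ± 0.36 and 3.20 ± 0.37, and Col6a3 by 3.24 ± 0.59 and 4.70 ± 0.64, all past the edgeR threshold. In mural cells these 3 chains passed in each fit without 1 tumour, whereas in stroma none of them passed without sarcoma 1.

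The rarer type VI chains were not alike. Col6a4 was found in mural cells at 9.07, 5.53, 9.92 and 12.45 CPM and at or below 0.711 CPM in sarcoma cells and stroma, a mural rise of 8.48 ± 0.88 over sarcoma cells (edgeR adjusted p = 0.000972). Col6a6 was a chain of muscle progenitors, at 72.9 CPM against at most 6.28 in the sarcoma classes. Col6a5 did not exceed 11.3 CPM in any of these classes. Col6a4, Col6a5 and Col6a6 lie next to each other on chromosome 9, with gaps of 27918 and 28811 bases between them.

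Of the remaining members, Col8a1, a short-chain collagen of vessel walls, was at 73.4, 7.06, 111 and 65.4 CPM in sarcoma cells, 834, 613, 695 and 144 in stroma and 301, 349, 276 and 174 in mural cells. The 3 classes overlapped only through the stromal sum of sarcoma 4, and the rise in stroma was 3.12 ± 0.78 (edgeR adjusted p = 0.0479). Its partner Col8a2 was at 36.3, 51.2, 105 and 4.87 CPM in stroma and at 0.0411 to 4.64 in sarcoma cells. It had no UMI in the mural cells of any of the 4 sarcomas, so no fold against mural cells is given. Col13a1, a transmembrane collagen, was at 38.3, 94.6, 19.1 and 12.45 CPM in mural cells and at or below 0.138 CPM in sarcoma cells (8.36 ± 1.07, edgeR adjusted p = 0.00222), and passed without any 1 tumour. Col23a1, also a transmembrane collagen, was at 42.3, 68.0, 165 and 2.09 CPM in stroma and 1.03, 0.631, 2.33 and 1.29 in sarcoma cells (5.34 ± 1.09, edgeR adjusted p = 0.028), and did not pass without sarcoma 1, 2 or 3.

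The members not yet named were scarce. Col17a1, a chain of hemidesmosomes, was highest in the sarcoma cells of sarcoma 2 at 14.7 CPM, with 1.27 to 6.57 in the sarcoma cells of the other tumours. Col7a1, the anchoring fibril collagen, reached 87.2 CPM in the 25 mural cells of sarcoma 4 and 15.2 in those of sarcoma 3, and was at most 8.40 CPM elsewhere. Col28a1, a type VI-like chain of peripheral nerve, was at 19.0, 12.1, 3.81 and 0 CPM in stroma. Col25a1 was at 18.1 CPM in muscle mural cells and at most 3.54 in sarcoma mural cells. Col9a1, Col9a2, Col9a3, Col10a1, Col19a1, Col20a1 and Col26a1 did not exceed 3.33 CPM in any of these classes.

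Against resting muscle there was 1 reference library, so the tests rest on the spread of the 4 sarcomas. For whole libraries edgeR called 0 of 44 members, with 13 at an unadjusted p under 0.05 (9.15% of genes) and 8 called by DESeq2 (6.77% of genes). For sarcoma cells against muscle progenitors it called 0 of 43, with 15 at an unadjusted p under 0.05 (12.5% of genes) and 15 called by DESeq2 (11.4% of genes). For stroma against progenitors it called 0 of 35, with 8 at an unadjusted p under 0.05 (9.68% of genes) and 7 called by DESeq2 (5.02% of genes). edgeR called no gene at all in these 3 comparisons. The levels themselves are therefore given as a description.

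In whole libraries 26 of 44 members lay below muscle in every sarcoma, against 24.9% of genes, and 1 lay above in every sarcoma, against 26.6% of genes. In sarcoma cells 27 of 43 members lay below muscle progenitors in every tumour, against 26.1% of genes, and 1 lay above, against 27.0%. That member was Col10a1 in both, at or below 0.199 CPM in the sarcoma cells and thus near the counting limit. Col3a1 was at 338 to 1473 CPM in sarcoma cells against 10977 in progenitors, and Col6a3 at 10.7 to 82.4 against 1438. Col5a2 was at 165 to 727 CPM against 822. Col18a1 was on both sides of its progenitor level of 81.0 CPM.

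In stroma 5 of 35 members lay above muscle progenitors in every tumour, against 22.2% of genes, and 16 lay below, against 27.5%. The 5 were Col24a1, Col8a2, Col16a1, Col12a1 and Col8a1. Col12a1 was at 149 to 508 CPM in stroma and 39.7 in progenitors, and Col8a1 at 144 to 834 and 75.6. Among those below, Col4a1 was at 198 to 778 CPM against 1378 and Col15a1 at 49.4 to 296 against 645. Without sarcoma 4 edgeR called 6 members, Col12a1 and Col8a1 higher (0.868% of genes) and Col4a4, Col4a3, Col5a3 and Col6a6 lower (1.05% of genes). The number above in every tumour was then 15, against 29.2% of genes. Col1a1 and Col1a2, at 5546 and 5645 CPM in progenitors, were higher than that in the stroma of sarcomas 1 to 3 and lower in sarcoma 4.

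Mural cells were the class in which members passed against muscle. Of 27 tested, edgeR called 2 higher in sarcoma mural cells, against 0.565% of genes, and 0 lower, against 0.933% of genes, with 17 members at an unadjusted p under 0.05 (19.1% of genes) and 8 called by DESeq2 (5.91% of genes). Col18a1 was at 794 to 905 CPM in the 4 sarcomas and 90.7 in muscle mural cells, a rise of 3.40 ± 0.33 (edgeR adjusted p = 0.0122). Col8a1 was at 174 to 349 CPM against 10.1, a rise of 4.98 ± 0.55 (adjusted p = 0.0145). The count of called members was 1 without sarcoma 1 (0.204% of genes) and 4 without sarcoma 4 (2.87% of genes). Side by side, 18 of 27 members lay above muscle in every sarcoma, against 24.1% of genes, and 4 lay below, against 30.0%: Col4a3, Col4a4, Col4a5 and Col25a1. The 5 endothelial markers summed to 49.3, 95.2, 59.9 and 116 CPM in sarcoma mural cells and to 24.4 in muscle mural cells. The 5 haematopoietic markers summed to 37.1, 18.4, 7.09 and 16.6 CPM against 0.420, and the part of either list in these differences was not tested.

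The machinery that folds, trims and binds collagen was read from 3 lists. Of 17 tested genes of folding and modification, 3 were higher in stroma than in sarcoma cells, beside 5.80% of all genes, and 0 lower, beside 2.19%. Serpinh1, the collagen chaperone HSP47, was at 467, 528, 802 and 672 CPM in sarcoma cells and at 1789, 1742, 2065 and 951 in stroma, a rise of 1.43 ± 0.27 (edgeR adjusted p = 0.0223). P4ha2, a catalytic subunit of prolyl 4-hydroxylase, was at 2.05, 2.16, 6.96 and 8.77 CPM in sarcoma cells and at 174, 133, 120 and 29.2 in stroma, a rise of 4.94 ± 0.86 (edgeR adjusted p = 0.0169). Its relative P4ha1 was at 69.4 to 203 CPM in sarcoma cells and 85.3 to 221 in stroma, with overlapping values. Crtap, a member of the prolyl 3-hydroxylase complex, was the third gene that passed, at 0.71 ± 0.16 (edgeR adjusted p = 0.036). In mural cells 3 of the 17 were higher than in sarcoma cells, Serpinh1, P4ha2 and P3h2, beside 10.1% of all genes. Crtap alone was called between stroma and mural cells, where 3.78% of all genes were higher and 3.74% lower.

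Of 14 tested genes of secretion and propeptide cleavage, 2 were higher in stroma than in sarcoma cells and 1 lower, beside the same 5.80% and 2.19% of all genes. Bmp1, the procollagen C-proteinase, was at 10.3, 17.5, 33.1 and 9.54 CPM in sarcoma cells and at 189, 251, 295 and 25.8 in stroma (3.46 ± 0.68, edgeR adjusted p = 0.0255). Pcolce2, an enhancer of that protease, rose by 3.32 ± 0.75 (edgeR adjusted p = 0.0374), and Adamts14, an N-proteinase, was lower at -2.47 ± 0.34 (adjusted p = 0.00767). In mural cells Bmp1 was higher than in sarcoma cells, and Furin and Adamts14 lower, beside 10.1% and 9.38% of all genes. Of 7 tested collagen receptors, Itga1, the alpha 1 integrin chain, was higher in stroma (5.98 ± 0.55) and in mural cells (10.17 ± 0.64) than in sarcoma cells by edgeR, at 0.0733 to 0.524 CPM in sarcoma cells, 7.31 to 29.0 in stroma and 177 to 313 in mural cells. Itgb1 was higher in mural than in sarcoma cells as well. Without the stromal sum of sarcoma 4 the folding list had 6, 4 and 4 genes higher in the 3 class comparisons in place of 3, 3 and 1, beside 11.0%, 11.5% and 5.93% of all genes.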

How the data were processed

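Single-cell RNA-seq libraries (10X Chromium 3′ v2, per the labels) of FACS-purified tdTomato cells, 1 from resting muscle and 4 from sarcomas, were read from the raw UMI counts that the authors deposited as 1 unnormalized matrix per library. Per the file headers, Cell Ranger 6.0.1 produced the counts, and the genome build was mm10, per the submitters' processing notes. Neither annotation release nor cell calling settings appear in the labels or headers. The files were used without further read processing.

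A cell was kept with 500 or more genes and no more than 10% mitochondrial UMIs, and no doublet caller was run. Cells that met over 1 gate entered no class, and all cells of the highest 5% of UMIs were left out in an alternative. Counts were summed per class and library where at least 10 cells were present. Sums were tested with edgeR 4.0.16 in R 4.3.3 (quasi-likelihood test, TMM scaling, filterByExpr, Benjamini-Hochberg adjustment over all genes tested, threshold 0.05). The 12 sums of the sarcomas entered 1 fit with library and class as terms (6 residual degrees of freedom), because classes of 1 library come from 1 tumour. Sarcomas were set against muscle in separate fits with 3 residual degrees of freedom. DESeq2 1.42.0 was an alternative, as were other scalings, gates, filters and each tumour left out. Intervals cover counting error only. The test script was checked on simulated data.

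The 44 members, the structural groups, the gates and the gene lists were chosen with earlier results of these data known. Members were named by rule: the 4 with the highest level in any class in each structural group, every type IV and type VI chain, and the called members of largest fold change in each class comparison. The other members were described after their values were seen. GENCODE vM21 supplied positions, matching 27645 of 28001 features and all 44 members. Promoter stretches came from RefSeq. Marker lists for tenocytes and for endothelial, mural and fibroblast cells served as checks.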

Additional observations from a re-analysis of the deposited data

Results flagged for a closer look

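A sample far from the other 3 of its class was looked for in 87 groups of 4 sarcomas, with Dixon's 95% critical value of 0.829, and chance gives about 1 such group in 20. Most of the samples that stood apart were from sarcoma 4. Among basement membrane chains these were Col4a2 in sarcoma cells (253 CPM), Col4a5 in sarcoma cells (53.7 CPM) and stroma (57.1 CPM), and Col4a6 in sarcoma cells (51.9 CPM) and stroma (75.6 CPM). The stromal ratio of Col1a1 to Col1a2 in sarcoma 4, 0.505, stood apart from the other 3 values of 1.00 to 1.06. The stromal sum of sarcoma 4 also held little Dcn, at 392 CPM, and its part in these stromal values was not tested.

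In the 25 mural cells of sarcoma 4, Col12a1 stood apart at 469 CPM, Col27a1 at 49.8 CPM, and the FACIT chains together at 5.85 UMIs per 10000. Sarcoma 1 stood apart by a low Col12a1 in sarcoma cells (1.81 CPM) and by a low sum of all members in mural cells (139.9 UMIs per 10000). Sarcoma 3 stood apart by a high Col6a2 in sarcoma cells (167 CPM) and by the chains outside the fibrillar, basement membrane and FACIT groups (6.21 UMIs per 10000).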

How the results depend on the processing

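The 30 gene results that were followed kept their direction under every alternative run. Of their 506 values, 430 stayed on their side of the threshold, 76 no longer passed (61 of them with a tumour left out) and 0 reversed. The counts depended more on the settings. DESeq2 called 21 members higher in stroma and 19 higher in mural cells than in sarcoma cells (both 12 with edgeR), 7 higher and 7 lower in stroma than in mural cells (3 and 4), and 8, 15, 7 and 8 against muscle in whole libraries, sarcoma cells, stroma and mural cells (0, 0, 0 and 2). Between stroma and mural cells DESeq2 called 1077 of all 11713 genes higher and 967 lower, beside 443 and 438 with edgeR. Leaving out a tumour leaves fewer samples. The count of members was then 0 to 21 for higher and 0 to 1 for lower in stroma than in sarcoma cells. For mural against sarcoma cells it ranged from 7 to 15 and 0 to 1, beside 435 to 1546 and 159 to 1589 of 11633 to 11891 genes. For stroma against mural cells it ranged from 0 to 6 and 0 to 5. Against muscle it ranged from 0 to 6 in stroma and 1 to 4 in mural cells, and the number above muscle in every sarcoma from 1 to 3 in whole libraries and in sarcoma cells and from 5 to 15 in stroma.

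The added settings, chosen after seeing the data, gave 20 higher members without the stromal sum of sarcoma 4. A Smarcb1 UMI in the stromal gate gave 19 higher than sarcoma cells, 5 higher than mural cells, 4 called against muscle and 8 above it. Among the other alternatives, the muscle gate applied to stroma gave 8 above, again without a share over all genes here. Classes of 1 library share a tumour, so the library was the replicate block. Without the block, 9 members were higher in stroma than in sarcoma cells, beside 343 of all 11713 genes. In mural cells 11 were higher and 0 lower than in sarcoma cells, beside 707 and 303 genes. Between stroma and mural cells 1 was higher and 3 lower in stroma, beside 99 and 219 genes. No paired analysis was possible because muscle has 1 library, for the comparisons against muscle.

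The 1 lower member in mural cells (Col16a1) became 0 with library size scaling and with sums of 50 or more cells, and 3 without the low-count filter. Over all genes, 602 of 11713, 1132 of 12080 and, without the filter, 1131 of 22198 were lower. That filter's removal gave 10 members below muscle in mural cells and 2 above it in sarcoma cells. Leaving out UMIs of another class's gate gave 2 lower in stroma than mural cells, beside 396 of 11001 genes. Without cells of the highest 5% of UMIs, collagen UMIs per 10000 were 303.0 in muscle and 313.9 in progenitors, with 2 members above progenitors. With all deposited barcodes they were 310.5 in muscle and 81.0 in muscle mural cells. The cause of these shifts was not tested. The smallest sum, mural cells of sarcoma 4 with 240963 UMIs, reaches 12.45 CPM with 3 UMIs.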

Other observations

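The stromal gate was defined for the sarcomas. Applied to the muscle library it took 173 cells, in which 5 tenocyte markers summed to 14613 CPM against 550 in muscle progenitors. Cells with a Pdgfra UMI were not left out of the 173, so some of them can also be among the progenitors. Tnmd, a tendon membrane protein, was at 3224 CPM and Scx, a tendon transcription factor, at 833 CPM. These cells carried 462.5 collagen UMIs per 10000, and Col1a1 led at 17964 CPM, above Col1a2 at 13239 and Col3a1 at 6327 CPM. The 173 cells also held chains that were low in progenitors: Col11a1 was at 577 CPM, Col22a1 at 432, Col26a1 at 178, Col11a2 at 120 and Col2a1 at 52.9 CPM. In sarcoma stroma the tenocyte markers summed to 1039, 607, 3831 and 571 CPM and Col11a1 was at 21.8, 25.8, 148 and 6.62 CPM. This is 1 library and no test was made.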
